A study of Homo sapiens with 12 samples.

Results

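The 4 class IIa histone deacetylases (*HDAC4*, *HDAC5*, *HDAC7* and *HDAC9*) and the 4 MEF2 transcription factors (*MEF2A*, *MEF2B*, *MEF2C* and *MEF2D*) were followed in MEC1 and JVM2, established human lines of neoplastic B cells. These 8 genes were chosen by symbol out of 22441 genes listed for MEC1 and 17144 listed for JVM2, and each had 1 row in both tables. The choice was prompted by the low *HDAC9* counts of MEC1-2B17 cells, so the MEC1 values of all 8 genes and the baseline level of *HDAC9* are given as descriptions with no *P*-value. The comparison of the JVM2 arms was tested, as was that of the lines for genes other than *HDAC9* and *MEF2B*. *MEF2B* was near the count floor in JVM2, so its difference between the lines is a description. RNA of 3 biological replicates of each of 4 stable cell populations was sequenced. MEC1-2B17 and JVM2-2B17 cells overexpressed UGT2B17, a glucuronidating enzyme, from its coding sequence in the pcDNA6 vector under blasticidin. JVM2-CTRL cells carried the empty pcDNA6 vector under blasticidin, whereas MEC1-CTRL cells carried an shRNA that represses *UGT2B17* and were kept in puromycin. Construct and antibiotic therefore cannot be told apart from the UGT2B17 level in MEC1. MEC1-2B17, JVM2-2B17 and JVM2-CTRL cells were made by electroporation and drug selection. For MEC1-CTRL cells the paper refers to earlier work, so their delivery method is not given here and may differ. The labels name no clones. Whether replicates were separate electroporations is not given, so *P*-values measure the spread between cultures of these populations.

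Class IIa HDACs are transcriptional corepressors with weak deacetylase activity of their own. They are held on DNA by MEF2 factors and work through the NCoR and SMRT complexes, which contain HDAC3. Phosphorylation by CaMK, PKD, SIK and MARK kinases makes them bind 14-3-3 proteins and leave the nucleus through exportin 1, which frees MEF2 to activate its targets with p300 and, downstream of calcineurin, ERK5 or p38, to do so more strongly. In B cells MEF2C is known for a role in proliferation after antigen receptor signals, and MEF2B for driving *BCL6* in germinal centers.

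On GRCh38, as annotated by GENCODE v44, *HDAC4* (ENSG00000068024) lies at chr2:239048168-239401654 on the minus strand and *HDAC5* (ENSG00000108840) at chr17:44076746-44123702 on the minus strand. *HDAC7* (ENSG00000061273) lies at chr12:47782722-47833132 on the minus strand and *HDAC9* (ENSG00000048052) at chr7:18086949-19002416 on the plus strand. *MEF2A* (ENSG00000068305) lies at chr15:99565417-99716488 on the plus strand and *MEF2B* (ENSG00000213999) at chr19:19145567-19192131 on the minus strand. *MEF2C* (ENSG00000081189) lies at chr5:88717117-88904257 on the minus strand and *MEF2D* (ENSG00000116604) at chr1:156463727-156500779 on the minus strand.

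Since class IIa HDACs act at MEF2 sites, the RefSeq promoters of the 8 genes (GRCh38.p14, 250 bases before to 50 bases after each start) were searched on both strands for the 10-base MEF2 consensus. Of the 8 genes, 7 matched an entry, with 23 promoters in all, and *HDAC5* had none. The consensus was found in 3 of the 23 promoters (13%), against 2.99% of all 35114 promoters. By gene it was found in 3 of 7, against 1001 of 27303. Promoters of 1 gene are not independent and some overlap, and genes with more starts have more chances of a match. These shares were not tested. The consensus was found in 1 of 5 promoters of *HDAC9*, 1 of 3 of *MEF2A* and 1 of 7 of *MEF2C*. The 50 bases around each match are shown 5′ to 3′ on the strand of the gene, with the consensus in capitals, because these are the promoters of the 8 genes that held it. They come from chr7:18086797-18086846 (plus strand, consensus beginning 8 bases before the start), chr15:99565941-99565990 (plus strand, beginning 23 bases before) and chr5:88824490-88824539 (minus strand, beginning 175 bases before).
HDAC9: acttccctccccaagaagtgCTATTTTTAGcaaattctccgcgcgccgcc
MEF2A: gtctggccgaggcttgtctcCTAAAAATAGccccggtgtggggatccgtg
MEF2C: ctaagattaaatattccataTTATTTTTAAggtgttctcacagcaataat
The *HDAC9* and *MEF2A* matches are the same letters read from opposite strands. A match describes these letters only, since binding of a factor was not measured.

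Libraries held 31762649 to 37744991 counts in MEC1 and 8809179 to 11231330 in JVM2. *UGT2B17* had 11.2, 10.2 and 9.87 CPM in MEC1-CTRL, 21.5, 19.6 and 19.1 in MEC1-2B17, 31.9, 27.9 and 29.2 in JVM2-CTRL and 37.6, 48.6 and 37.8 in JVM2-2B17. It was higher in every 2B17 library than in every CTRL library of its line, with log2 fold changes of 0.94 (adjusted *P* = 2.0e-09) for MEC1 and 0.48 (adjusted *P* = 0.0048) for JVM2 by the edgeR quasi-likelihood test. All 6 B-cell markers checked had counts in both lines, with summed levels of 2133 to 2192 CPM in MEC1-CTRL, 1929 to 2002 in MEC1-2B17, 1382 to 1400 in JVM2-CTRL and 1343 to 1578 in JVM2-2B17. The sums of the MEC1 arms did not overlap, and 2 of the 6 markers rose and 4 fell there, against 3 and 1 in JVM2. Of all genes tested, 41.7% in MEC1 and 29.3% in JVM2 passed the same test (adjusted *P* below 0.05, edgeR). CPM, the usual count scaled for depth, was computed from TMM-corrected sizes on a scale common to all 12 libraries. The 6 T-cell markers summed to at most 0.607 CPM in MEC1 and had no row in JVM2. The myeloid markers with a row (5 of 6 in MEC1, 4 of 6 in JVM2) had higher sums in 2B17 cells of both lines, with 4.47 to 5.08 CPM against 2.23 to 2.65 in MEC1 and 18.5 to 21.8 CPM against 9.60 to 10.3 in JVM2. Of 3 tested in MEC1, *ITGAM* rose and *CSF1R* fell, and both tested in JVM2, *ITGAM* and *CD33*, rose. The part of the B-cell and myeloid markers in the results was not tested. *CD14* was at or below 0.08 CPM on average in MEC1 groups and, like *MPO*, had no row in JVM2. JVM2-2B17 replicate 2 stood apart, with an SD of log2 differences from its group of 0.262 across genes against 0.166 to 0.206 in the other JVM2 libraries, and the JVM2 fold changes of the 8 genes are given with and without it where a fit without it could be made.

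*HDAC9* had the largest log2 fold change of the 8 genes in MEC1. The MEC1-CTRL replicates had 51.2, 48.7 and 46.5 CPM (2046, 1765 and 1630 counts). The MEC1-2B17 replicates had 11.4, 9.57 and 8.98 CPM (406, 328 and 299 counts). Every MEC1-2B17 library was far below every MEC1-CTRL library, and the mean went from 48.8 ± 2.36 CPM (SD, n = 3) to 9.99 ± 1.27 CPM (SD, n = 3). The log2 fold change was -2.29 (SE 0.070), a level 4.89-fold lower. In these bulk samples, fewer cells with the transcript and less transcript per cell cannot be told apart. In JVM2 *HDAC9* was barely detected, with 10, 8 and 10 counts in the CTRL replicates (1.07, 0.795 and 1.13 CPM) and 3, 5 and 1 counts in the 2B17 replicates (0.290, 0.605 and 0.120 CPM). The 2B17 libraries were again the lower ones and did not overlap with CTRL, but the gene did not pass the filter on low counts and so was not among the genes tested. The ratio of the summed counts, 9 in 2B17 and 28 in CTRL, was 0.337 after scaling for depth, with an exact 95% interval of 0.140 to 0.735 that covers counting error only. Fitted without the filter, its log2 fold change was -1.53 (SE 0.51, adjusted *P* = 0.043, edgeR). Without JVM2-2B17 replicate 2 it passed the filter, and its log2 fold change was -2.14 (SE 0.63). Without JVM2-2B17 replicate 3 it also passed, at -1.18 (SE 0.50). *HDAC9* entered these fits through its CTRL counts alone, where it is high, so both values are descriptions. From highest to lowest, MEC1-CTRL was followed by MEC1-2B17, then JVM2-CTRL and last JVM2-2B17, with no overlap between neighbors.

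**Figure D1:**
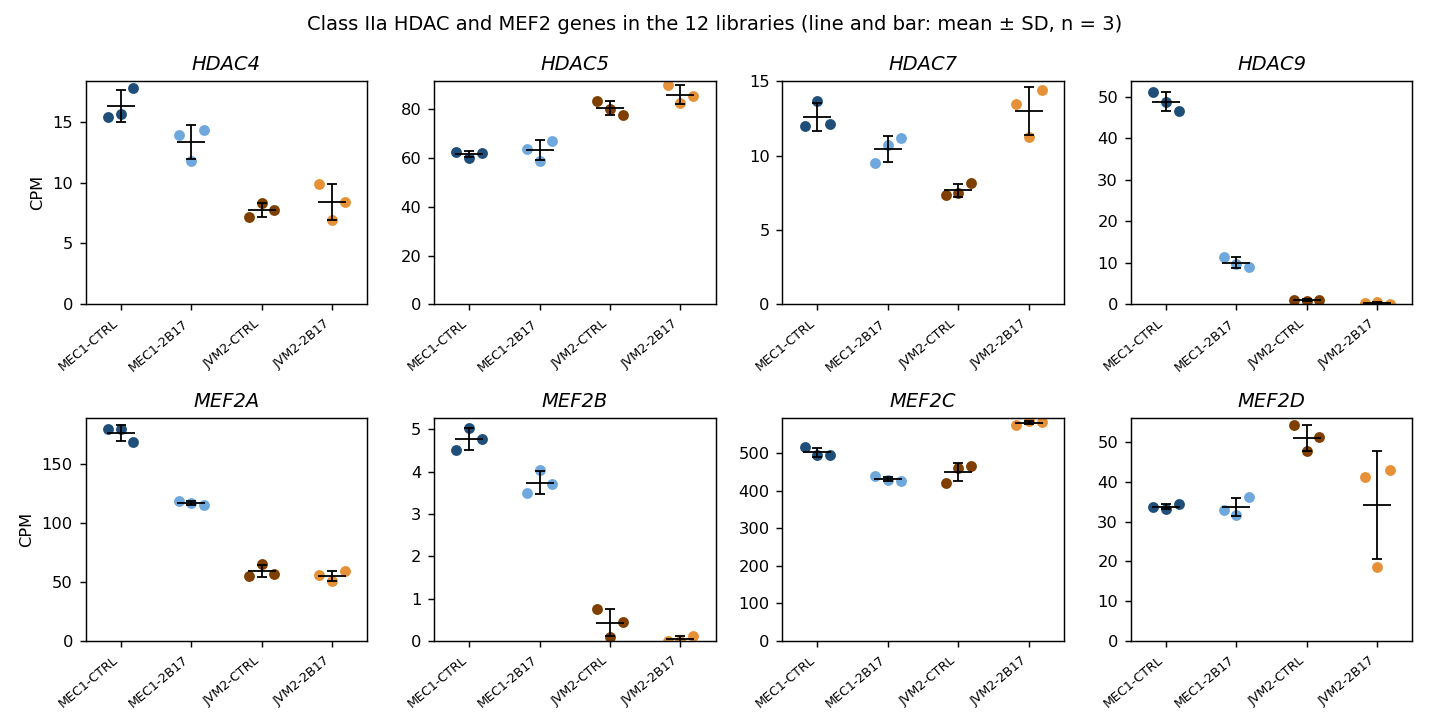
CPM of each of the 8 genes (vertical axis, linear, from 0) in the 3 libraries of the 4 groups (horizontal axis), with points for libraries, a horizontal line for the mean and a bar for the SD (n = 3). *HDAC9* lies at 46.5 to 51.2 CPM in MEC1-CTRL and at 8.98 to 11.4 CPM in MEC1-2B17, and a single JVM2-2B17 library at 18.6 CPM widens the spread of *MEF2D*.

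*HDAC7*, a class IIa enzyme known for roles in lymphocyte development, differed in opposite directions in the lines. The JVM2-CTRL replicates had 7.36, 7.45 and 8.16 CPM, and the JVM2-2B17 replicates had 13.4, 11.2 and 14.4 CPM. All JVM2-2B17 libraries were above all JVM2-CTRL libraries, and *HDAC7* rose by 0.77 on the log2 scale (SE 0.13, adjusted *P* = 9.4e-04, edgeR), or 1.71-fold. Without JVM2-2B17 replicate 2, the log2 fold change was 0.87 (SE 0.14, adjusted *P* = 1.2e-05). In MEC1 the CTRL replicates had 11.98, 13.6 and 12.1 CPM and the 2B17 replicates 9.47, 10.7 and 11.2 CPM. The MEC1-2B17 libraries were the lower ones with no overlap, at a log2 fold change of -0.27 (SE 0.078). MEC1-CTRL and JVM2-2B17 overlapped at the top of the order of levels, MEC1-2B17 lay close below, and JVM2-CTRL was the lowest group with no overlap with the others.

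*HDAC4*, which carries several of the phosphorylation sites that control nuclear export, had 15.4, 15.7 and 17.8 CPM in MEC1-CTRL and 13.9, 11.7 and 14.3 CPM in MEC1-2B17. The MEC1-2B17 libraries were below the MEC1-CTRL libraries without overlap, at a log2 fold change of -0.29 (SE 0.079). It had 7.14, 8.35 and 7.71 CPM in JVM2-CTRL and 9.86, 6.90 and 8.40 CPM in JVM2-2B17. The JVM2 arms overlapped, and the log2 fold change of 0.13 did not pass the test (SE 0.16, interval -0.18 to 0.44, adjusted *P* = 0.58, edgeR). Without JVM2-2B17 replicate 2, its lowest library, it was 0.25 (SE 0.16, adjusted *P* = 0.23). Both MEC1 groups lay above both JVM2 groups.

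*HDAC5*, a close relative of *HDAC4* with the same export control, was the most even of the 4 enzymes between arms. It had 62.6, 60.2 and 61.9 CPM in MEC1-CTRL and 63.7, 58.9 and 67.0 CPM in MEC1-2B17, which overlapped, at a log2 fold change of 0.03 (SE 0.045). It had 83.5, 80.1 and 77.8 CPM in JVM2-CTRL and 90.0, 82.5 and 85.4 CPM in JVM2-2B17. These overlapped as well, at a log2 fold change of 0.10 (SE 0.063, interval -0.02 to 0.22, adjusted *P* = 0.27, edgeR), or 0.13 without JVM2-2B17 replicate 2 (SE 0.057, adjusted *P* = 0.069).

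*MEF2C*, the most highly counted of the 8 genes, also differed in opposite directions in the lines. The JVM2-CTRL replicates had 421, 461 and 465 CPM, and the JVM2-2B17 replicates had 576, 585 and 583 CPM. All JVM2-2B17 libraries were higher, and *MEF2C* rose by 0.37 on the log2 scale (SE 0.056, adjusted *P* = 3.3e-04, edgeR), or 1.29-fold. Without JVM2-2B17 replicate 2 the value was 0.37 (SE 0.051, adjusted *P* = 7.9e-07). In MEC1 the CTRL replicates had 516, 496 and 496 CPM and the 2B17 replicates 438, 429 and 427 CPM. There the 2B17 libraries were lower with no overlap, at a log2 fold change of -0.22 (SE 0.032). JVM2-2B17 was the highest group, MEC1-CTRL came next, and JVM2-CTRL and MEC1-2B17 overlapped at the bottom of the order.

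*MEF2A*, a broadly expressed MEF2 factor, followed *HDAC9* in MEC1 as the second largest difference. It had 180, 179 and 168 CPM in MEC1-CTRL and 118, 117 and 115 CPM in MEC1-2B17. All MEC1-2B17 libraries were lower, at a log2 fold change of -0.60 (SE 0.036). In JVM2 it had 55.3, 65.4 and 56.8 CPM in CTRL and 55.6, 50.9 and 58.9 CPM in 2B17. The JVM2 arms overlapped, and the log2 fold change of -0.10 did not pass the test (SE 0.085, interval -0.27 to 0.06, adjusted *P* = 0.40, edgeR). It was -0.05 without JVM2-2B17 replicate 2 (SE 0.072, adjusted *P* = 0.66). The order was MEC1-CTRL, MEC1-2B17 and then the JVM2 groups.

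*MEF2D*, the other broadly expressed factor of the family, had 33.7, 33.1 and 34.5 CPM in MEC1-CTRL and 33.0, 31.7 and 36.1 CPM in MEC1-2B17. These overlapped, at a log2 fold change of -0.01 (SE 0.052). It had 54.3, 47.8 and 51.1 CPM in JVM2-CTRL and 41.1, 18.6 and 42.8 CPM in JVM2-2B17, where replicate 2 had less than the other libraries of its group (154 counts against 425 and 357). The JVM2-2B17 libraries were lower without overlap, but with that spread the log2 fold change of -0.57 did not pass the test (SE 0.21, adjusted *P* = 0.060, edgeR). Without JVM2-2B17 replicate 2 it was -0.28 and passed (SE 0.073, adjusted *P* = 0.0037). It also passed without JVM2-2B17 replicate 1 at -0.73 (adjusted *P* = 0.046) and without replicate 3 at -0.75 (adjusted *P* = 0.031), while on all libraries edgeR's exact test gave an adjusted *P* of 0.035 and DESeq2 of 0.29.

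*MEF2B*, the factor linked to germinal center B cells, had 4.50, 5.02 and 4.76 CPM in MEC1-CTRL and 3.49, 4.03 and 3.69 CPM in MEC1-2B17. The MEC1-2B17 libraries were lower without overlap, at a log2 fold change of -0.35 (SE 0.11). In JVM2 it had 7, 1 and 4 counts in CTRL and 0, 0 and 1 counts in 2B17. A count of 0 allows a level of up to 0.290 CPM in JVM2-2B17 replicate 1 and 0.363 CPM in replicate 2, taking 3 counts as the floor. *MEF2B* did not pass the filter in JVM2. The ratio of the summed counts, 1 in 2B17 and 12 in CTRL, was 0.0874 with an exact 95% counting interval of 0.0020 to 0.591, and without the filter the adjusted *P* was 0.056 (edgeR). The arms overlapped in CPM.

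In counts, 6 of the 8 genes were lower in every MEC1-2B17 library than in every MEC1-CTRL library, and 0 were higher in every one. These were *HDAC4*, *HDAC7*, *HDAC9*, *MEF2A*, *MEF2B* and *MEF2C*. Without *HDAC9*, 5 of 7 were lower. With 1 library left out, *HDAC7* ranged from -0.31 to -0.20 and *MEF2B* from -0.40 to -0.30 on the log2 scale. Of all 16581 genes tested in MEC1, 41.7% were past the threshold (adjusted *P* below 0.05, edgeR) and 21.6% were past it as lower. The share of all genes without overlap was not counted. Since the genes were chosen on this contrast, the counts for the 8 describe them only, and nothing is read from their share. In JVM2, 2 of the 6 genes tested were past the threshold, *HDAC7* and *MEF2C*, both higher, where 29.3% of the 13021 genes tested were past it and 14.1% were higher. This share, 2 of 6, was close to that of all genes. Without JVM2-2B17 replicate 2, 4 of 7 were past the threshold, where 4541 of all 13306 genes tested were. These 4 include *HDAC9*, which passed the filter through its CTRL counts alone, so nothing is read from this count. In MEC1 the median log2 fold change was -0.28 over the HDACs and -0.29 over the MEF2 factors, against 0.0026 over all genes tested. In JVM2 it was 0.13 over 3 HDACs and -0.10 over 3 MEF2 factors, against 1.2e-04. The calls of *HDAC7* and *MEF2C* in JVM2 held with every replicate left out in turn, at 0.70 to 0.87 and 0.33 to 0.40.

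**Figure D2:**
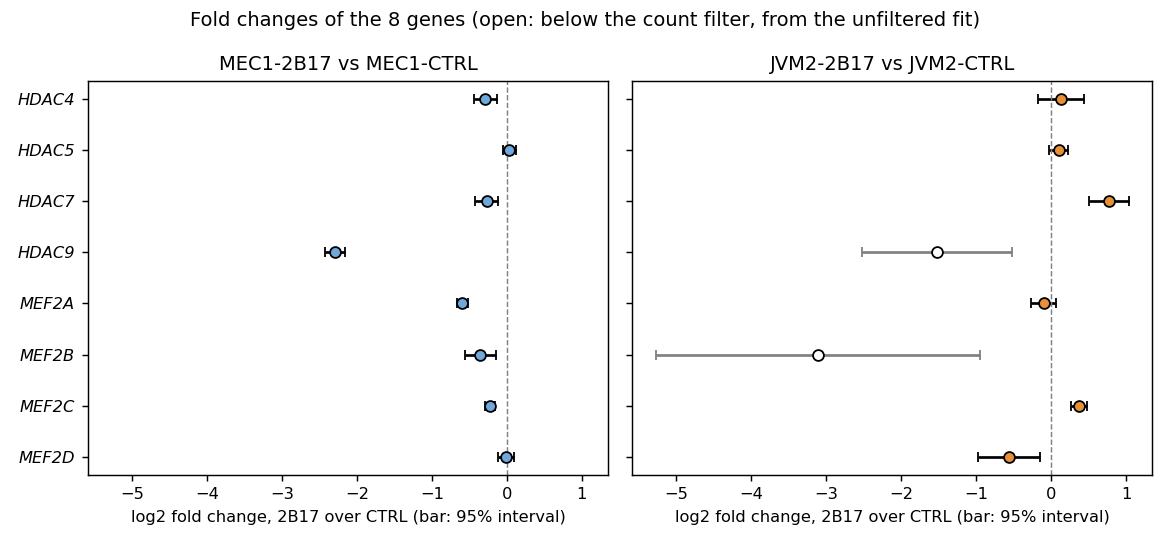
Log2 fold change of 2B17 over CTRL (horizontal axis) for the 8 genes (vertical axis) in MEC1 (left) and JVM2 (right), with bars of 1.96 SE. Open symbols are *HDAC9* and *MEF2B* in JVM2, taken from the fit without the count filter, and *HDAC7* and *MEF2C* lie left of 0 in MEC1 and right of 0 in JVM2.

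The difference of the arm effect between the lines, MEC1 minus JVM2, was fitted on all 12 libraries and is a description for these genes. The MEC1 and JVM2 controls differed in construct and antibiotic, so line and kind of control cannot be told apart in this difference. It passed the threshold for 32.0% of all genes tested. It was -1.04 on the log2 scale for *HDAC7* (SE 0.16), -0.59 for *MEF2C* (SE 0.063), -0.49 for *MEF2A* (SE 0.089) and -0.42 for *HDAC4* (SE 0.18). It was 0.56 for *MEF2D* (SE 0.21), or 0.28 without JVM2-2B17 replicate 2 (SE 0.092), and -0.06 for *HDAC5* (SE 0.077). For *HDAC9* it was -0.73 with an SE of 0.63, or -0.10 with an SE of 1.09 without JVM2-2B17 replicate 2, and for *MEF2B* 2.98 with an SE of 1.10, which ranged from 2.32 without JVM2-CTRL replicate 1 to 5.99 without JVM2-2B17 replicate 3, where the arm is left at 0 counts. The errors of *HDAC9* and *MEF2B* reflect the 1 to 10 and 0 to 7 counts per library that these genes had in JVM2.

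Levels of different genes were compared as CPM per kilobase of annotated exon. In MEC1-CTRL, *HDAC5* led the class IIa family with 60.7% ± 0.705 of its summed level (SD, n = 3), followed by *HDAC9* with 21.2% ± 0.891. In MEC1-2B17 the share of *HDAC9* was 5.33% ± 0.750, below *HDAC7* (9.72% ± 0.953) and *HDAC4* (8.63% ± 0.458), and *HDAC5* held 76.3% ± 0.486. *HDAC9* thus went from the second of the 4 enzymes to the last in MEC1 on this scale. The order depends on the length of all annotated exons, 17.284 kb for *HDAC9* and 9.928 kb for *HDAC7*, whichever transcripts are made. In CPM, *HDAC9* (8.98 to 11.4) and *HDAC7* (9.47 to 11.2) overlapped in MEC1-2B17. In JVM2 its share was 0.484% ± 0.0899 in CTRL and 0.151% ± 0.117 in 2B17, and *HDAC5* held 88.5% ± 0.828 and 85.5% ± 1.14. *HDAC7* held 6.47% ± 0.530 in JVM2-CTRL and 9.92% ± 0.940 in JVM2-2B17. The summed level of the family was 13.3 ± 0.140 CPM per kilobase in MEC1-CTRL and 10.9 ± 0.629 in MEC1-2B17, and 11.9 ± 0.315 and 13.2 ± 0.701 in the JVM2 arms.

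*MEF2C* led the MEF2 family in every group, with 57.0% ± 0.623 of its summed CPM per kilobase in MEC1-CTRL, 61.0% ± 0.373 in MEC1-2B17, 69.7% ± 1.35 in JVM2-CTRL and 79.1% ± 3.53 in JVM2-2B17. *MEF2A* was second in MEC1, with 32.9% ± 0.741 in CTRL and 27.2% ± 0.239 in 2B17. In JVM2-CTRL *MEF2A* (15.2% ± 1.10) and *MEF2D* (14.7% ± 1.43) held shares that overlapped. In JVM2-2B17 they held 12.4% ± 0.416 and 8.52% ± 3.13, the latter with a lowest library of 4.90%. *MEF2B* held 3.04% ± 0.201 and 2.98% ± 0.238 in the MEC1 arms and at most 0.681% in any JVM2 library. The summed level of the family was 75.0 ± 1.54 CPM per kilobase in MEC1-CTRL, 60.2 ± 0.485 in MEC1-2B17, 54.7 ± 1.93 in JVM2-CTRL and 62.6 ± 2.51 in JVM2-2B17. Without replicate 2, the other JVM2-2B17 libraries had sums of 13.3 and 13.9 for the HDACs and 63.2 and 64.7 for the MEF2 factors, with *MEF2D* at 10.2% and 10.4%. In both families the MEC1-2B17 sums lay below the MEC1-CTRL sums, and the JVM2-2B17 sums above the JVM2-CTRL sums. From MEC1-CTRL to MEC1-2B17, mean *HDAC9* went from 2.82 to 0.578 CPM per kilobase and *HDAC5* from 8.08 to 8.29. *HDAC4* went from 1.15 to 0.940 and *HDAC7* from 1.27 to 1.05. Since low *HDAC9* in MEC1-2B17 prompted the choice of genes, the HDAC sum and shares in MEC1 are descriptions only.

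**Figure D3:**
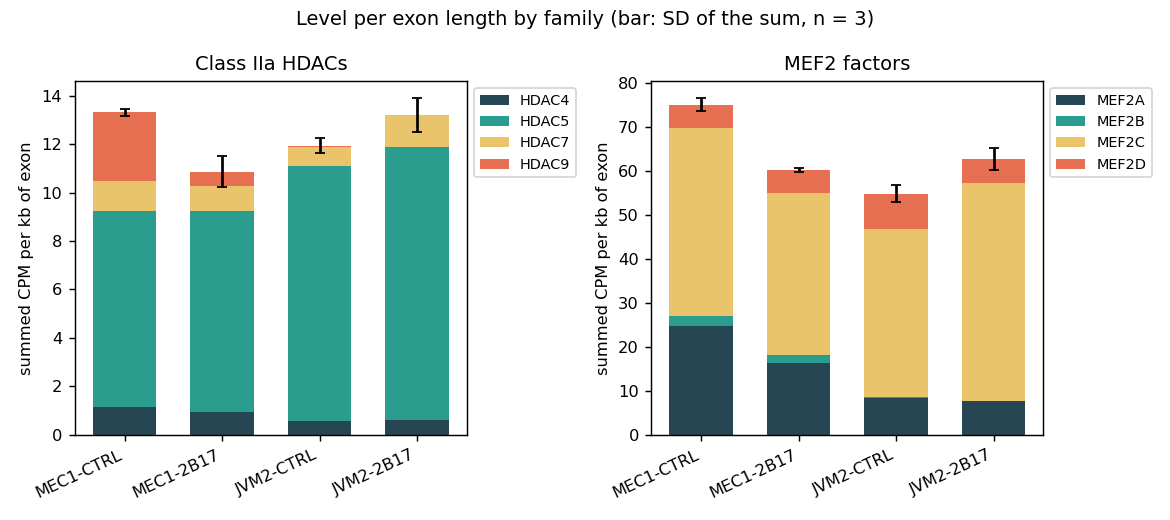
Summed CPM per kilobase of exon (vertical axis, from 0) of the class IIa HDACs (left) and the MEF2 factors (right) in the 4 groups, stacked by gene means, with the SD of the sum as a bar (n = 3). *HDAC5* fills 60.7% to 88.5% of the HDAC bars and *MEF2C* 57.0% to 79.1% of the MEF2 bars.

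At baseline, MEC1-CTRL was compared with JVM2-CTRL over the 15130 genes of both tables that passed the count filter. All 7 genes other than *HDAC9* were past the threshold, 5 higher and 2 lower in MEC1-CTRL, where 78.3% of all genes tested were past it (39.6% higher, 38.7% lower), so that passing was common among genes of these lines. *HDAC9* had the largest difference of the 8, at a log2 value of 5.61 (SE 0.16), from 0.998 ± 0.179 CPM in JVM2-CTRL to 48.8 ± 2.36 CPM in MEC1-CTRL. *MEF2B* was 3.47 higher on the log2 scale in MEC1-CTRL (SE 0.30). It passed the filter through its MEC1 counts, with 12 counts summed over the JVM2-CTRL libraries. Its difference is therefore a description, and its place among the 7 is no result. *MEF2A* was 1.57 higher (SE 0.063, adjusted *P* = 3.0e-15, edgeR), *HDAC4* 1.07 higher (SE 0.12, adjusted *P* = 1.0e-07, edgeR) and *HDAC7* 0.72 higher (SE 0.11, adjusted *P* = 9.3e-06, edgeR). *MEF2C* was 0.16 higher (SE 0.045, adjusted *P* = 0.0026, edgeR). *MEF2D* had a log2 difference of -0.60 (SE 0.14, adjusted *P* = 8.9e-04, edgeR) and *HDAC5* of -0.39 (SE 0.054, adjusted *P* = 1.8e-06, edgeR), both lower in MEC1-CTRL. Line, construct, antibiotic and depth cannot be told apart in this comparison, and sequencing was done at 2 sites that are not matched to samples in the sources used here.

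Several genes share ground with the 8, and the strand setting of the counting is not given, so reads of overlapping transcripts may not be separated. *MEF2B* overlaps *MEF2BNB*, which had 490 to 604 counts in MEC1-CTRL, and the read-through *MEF2BNB-MEF2B*, which had 13 to 24, on the same strand. *MEF2BNB* did not pass the test in MEC1 (0.04, adjusted *P* = 0.68, edgeR) or JVM2 (-0.18, adjusted *P* = 0.38, edgeR). *MEF2C-AS1*, on the strand opposite *MEF2C*, fell in MEC1 by 0.36 on the log2 scale (SE 0.072, adjusted *P* = 4.1e-04, edgeR), from 13.6 ± 0.411 to 10.6 ± 0.880 CPM, and had 0.22 in JVM2 (adjusted *P* = 0.41, edgeR). *SLC48A1*, opposite the end of *HDAC7*, fell in MEC1 by 0.72 (SE 0.17, adjusted *P* = 0.0018, edgeR) and had 0.16 in JVM2 (adjusted *P* = 0.49, edgeR). *LYSMD4*, opposite *MEF2A*, fell in MEC1 by 0.30 (SE 0.079, adjusted *P* = 0.0045, edgeR) and *G6PC3*, opposite *HDAC5*, by 0.17 (SE 0.055, adjusted *P* = 0.016, edgeR). In JVM2 these had -0.19 (adjusted *P* = 0.40, edgeR) and -0.30 (adjusted *P* = 0.12, edgeR). *AC062017.1* (*HDAC4-AS1*), opposite the start of *HDAC4*, had -0.18 in MEC1 (adjusted *P* = 0.56, edgeR) and was not tested in JVM2, and 4 other overlapping RNAs had rows in MEC1 only. No annotated gene with a row overlapped *HDAC9*. Within 1 Mb of *HDAC9*, 4 genes were tested in MEC1, with log2 fold changes from -0.41 to 0.10, and only *SNX13* passed (0.10, SE 0.039, adjusted *P* = 0.045, edgeR). In JVM2, 2 were tested and 0 passed, at 0.01 and 0.07. Over all 8 genes, 73 of 196 neighbors passed in MEC1 and 40 of 155 in JVM2. Pooled over the loci, these counts are below the shares of all genes tested that passed (41.7% and 29.3%). With 1 JVM2-CTRL library left out, 19 to 22 neighbors passed in JVM2. Calls over all genes were then 2687 to 2932, against 3821 with all libraries. Single loci varied in direction. Around *HDAC7* in MEC1, 8 of 19 fell and 0 rose, where 21.6% of all genes tested were lower. Around *MEF2D* in JVM2, 12 of 35 fell and 1 rose, where 15.3% were lower. Around *HDAC5* in MEC1, 9 rose and 9 fell. These loci were picked after their values were seen, and direction at single loci was not tested.

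The MEF2 target list holds 12 genes that MEF2 is known to activate in some cell types, many of them early response genes. In MEC1, 9 were tested, of which 6 fell and 0 rose, with a median log2 fold change of -0.83, where 21.6% of all genes tested were lower. In JVM2, 7 were tested, of which 4 rose and 1 fell, with a median of 0.63, where 14.1% of all genes tested were higher and 15.3% lower. The genes and lists were written with earlier results of these data known. *EGR1*, an early response transcription factor, had 5.55, 8.38 and 6.42 CPM in MEC1-CTRL and 1.46, 1.90 and 2.64 CPM in MEC1-2B17. It fell there by 1.77 on the log2 scale (SE 0.18, adjusted *P* = 1.4e-07, edgeR). It had 6.29, 7.05 and 5.44 CPM in JVM2-CTRL and 28.0, 15.4 and 31.7 CPM in JVM2-2B17, a rise of 2.00 (SE 0.24, adjusted *P* = 5.5e-05, edgeR), or 2.24 without JVM2-2B17 replicate 2. Neither line overlapped between arms, and the effects differed between the lines by -3.76 (SE 0.33, adjusted *P* = 2.8e-08, edgeR interaction test).

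*NR4A2*, an orphan nuclear receptor, also moved in opposite directions. It fell in MEC1 by 0.83 (SE 0.14, adjusted *P* = 1.0e-04, edgeR) and rose in JVM2 by 0.63 (SE 0.20, adjusted *P* = 0.031, edgeR), with a difference of -1.44 between the lines (adjusted *P* = 9.2e-05, edgeR). The JVM2 rise of *NR4A2* did not pass in DESeq2, nor without JVM2-CTRL replicate 1, JVM2-CTRL replicate 3 or JVM2-2B17 replicate 3. *KLF2*, a regulator of lymphocyte quiescence and trafficking, rose in JVM2 by 1.53 (SE 0.29, adjusted *P* = 0.0019, edgeR), from 8, 10 and 10 counts to 35, 26 and 17, and *NR4A1* rose by 1.09 (SE 0.22, adjusted *P* = 0.0024, edgeR). In MEC1 *KLF2* had 0.19 (adjusted *P* = 0.35, edgeR) and *NR4A1* 0.24 (adjusted *P* = 0.074, edgeR). *RHOB*, a small GTPase, fell in MEC1 by 1.33 (SE 0.15, adjusted *P* = 6.2e-07, edgeR) and had 0.17 in JVM2 (adjusted *P* = 0.54, edgeR). *BCL6*, a repressor that also recruits class IIa HDACs, fell in MEC1 by 0.97 (SE 0.14, adjusted *P* = 1.5e-05, edgeR), from 3.73, 4.19 and 3.68 CPM to 2.00, 1.61 and 2.34 CPM, and had no row in JVM2. *JUN* was lower in both lines, by 0.53 in MEC1 (adjusted *P* = 0.015, edgeR) and 0.60 in JVM2 (adjusted *P* = 4.5e-04, edgeR), with overlapping arms in MEC1. *NR4A3*, a relative of *NR4A2*, fell in MEC1 by 0.88 (SE 0.29, adjusted *P* = 0.021, edgeR) at 10 to 48 counts per library, and was not tested in JVM2. *KLF6* had 0.06 and 0.04 in the lines and did not pass in either (adjusted *P* = 0.36 and 0.61, edgeR).

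**Figure D4:**
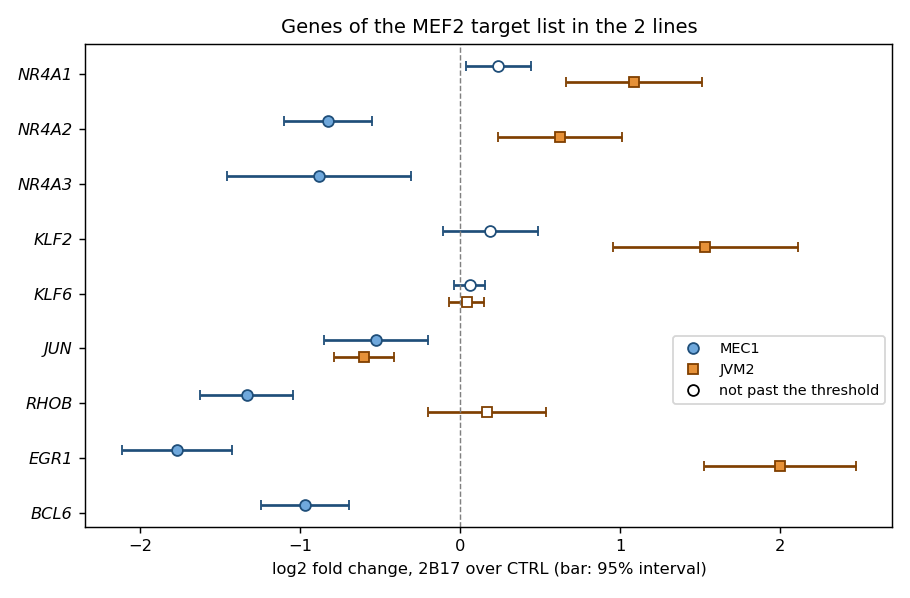
Log2 fold change of 2B17 over CTRL (horizontal axis, bars of 1.96 SE) for the tested genes of the MEF2 target list (vertical axis) in MEC1 (circles) and JVM2 (squares), filled where the adjusted *P* is below 0.05. *EGR1* lies at -1.77 in MEC1 and 2.00 in JVM2, and *NR4A3* and *BCL6* have no value in JVM2.

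Kinases that drive nuclear export of class IIa HDACs were tested for 11 genes in MEC1, of which 2 rose and 4 fell, and for 10 in JVM2, of which 1 rose and 3 fell. In all, 6 of 11 and 4 of 10 passed, beside 41.7% and 29.3% of all genes tested. *CAMK2D*, a subunit of CaMKII, had 130, 123 and 125 CPM in MEC1-CTRL and 67.6, 71.2 and 65.9 CPM in MEC1-2B17. It fell there by 0.89 (SE 0.037, adjusted *P* = 9.1e-13, edgeR). In JVM2 *CAMK2D* went the other way, from 45.9, 45.9 and 45.4 CPM in CTRL to 93.2, 92.8 and 91.5 CPM in 2B17, a rise of 1.02 (SE 0.060, adjusted *P* = 1.1e-07, edgeR). Its arm effects differed by -1.90 (SE 0.069, adjusted *P* = 4.1e-14, edgeR). *CAMK4*, the lymphocyte calmodulin kinase, showed the reverse pattern. It rose in MEC1 by 0.51 (SE 0.035, adjusted *P* = 7.2e-10, edgeR), from 95.6 to 103 CPM in CTRL to 141 to 146 CPM in 2B17, and fell in JVM2 by 0.61 (SE 0.088, adjusted *P* = 2.2e-04, edgeR), from 46.1 to 55.4 CPM in CTRL to 31.4 to 35.6 CPM in 2B17. *SIK1*, a salt-inducible kinase, fell in JVM2 by 1.06 (SE 0.25, adjusted *P* = 0.0068, edgeR), from 29, 26 and 24 counts to 13, 13 and 10. *PRKD2* of the PKD family fell in JVM2 by 0.37 (SE 0.094, adjusted *P* = 0.011, edgeR), and its relative *PRKD3* fell in MEC1 by 0.40 (SE 0.039, adjusted *P* = 8.9e-08, edgeR). *CAMK1D* rose in MEC1 by 0.32 (SE 0.034, adjusted *P* = 2.4e-07, edgeR).

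Among the 14-3-3 proteins, exportin 1 and calcineurin subunits, 1 of 11 genes rose and 3 fell in MEC1, and 2 rose and 1 fell in JVM2. The shares of 36.4% and 27.3% were below those of all genes tested, 41.7% and 29.3%. *XPO1*, which encodes exportin 1, fell in MEC1 by 0.17 (SE 0.033, adjusted *P* = 3.7e-04, edgeR). *PPP3CC*, a catalytic subunit of calcineurin, fell in MEC1 by 0.19 (adjusted *P* = 0.0014, edgeR) and rose in JVM2 by 0.27 (adjusted *P* = 0.030, edgeR). Another, *PPP3CB*, fell in MEC1 by 0.13 (adjusted *P* = 0.027, edgeR). The 14-3-3 gene *YWHAB* rose in MEC1 by 0.18 (adjusted *P* = 2.7e-04, edgeR), and in JVM2 *YWHAG* fell by 0.25 (adjusted *P* = 0.0032, edgeR) and *YWHAQ* rose by 0.17 (adjusted *P* = 0.042, edgeR). The calls of *PPP3CC* and *YWHAQ* in JVM2 and *PPP3CB* in MEC1 were not made by DESeq2.

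Among 9 corepressor partners, all tested in MEC1, 1 rose and 2 fell there. *NCOR1*, the scaffold that joins class IIa HDACs to HDAC3, fell by 0.17 in MEC1 (SE 0.034, adjusted *P* = 3.8e-04, edgeR), and the other partner to fall was *BCL6*. *CBX5*, which encodes heterochromatin protein HP1 alpha, rose in MEC1 by 0.15 (adjusted *P* = 0.0041, edgeR) and fell in JVM2 by 0.24 (adjusted *P* = 0.021, edgeR), where it was the only partner of 7 tested to pass. The shares of partners that passed, 33.3% and 14.3%, were below the 41.7% and 29.3% of all genes. Of the 7 other classical HDACs, 2 rose and 2 fell in each line, a share of 57.1%. *HDAC3* fell in MEC1 by 0.18 (SE 0.036, adjusted *P* = 5.0e-04, edgeR) and rose in JVM2 by 0.20 (SE 0.066, adjusted *P* = 0.042, edgeR). *HDAC11*, at 24 to 56 counts per library, fell in MEC1 by 0.71 (SE 0.21, adjusted *P* = 0.010, edgeR). In JVM2 *HDAC11* rose by 0.53 (SE 0.16, adjusted *P* = 0.030, edgeR), *HDAC2* fell by 0.31 (SE 0.054, adjusted *P* = 9.1e-04, edgeR) and *HDAC1* fell by 0.27 (SE 0.057, adjusted *P* = 0.0036, edgeR). In MEC1 *HDAC8* rose by 0.16 (adjusted *P* = 0.022, edgeR) and *HDAC6* by 0.14 (adjusted *P* = 0.015, edgeR). DESeq2 did not call *HDAC11* and *HDAC3* in JVM2 or *HDAC8* in MEC1, and *HDAC11* passed in only 1 of the 6 JVM2 fits with a library left out, that without JVM2-2B17 replicate 2.

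MEF2 activators and cofactors numbered 11, with the inhibitor *CABIN1* among them. Of these, 2 rose and 4 fell in each line, a share of 54.5%. *NFATC1*, a calcineurin target that acts with MEF2, fell by 0.79 in MEC1 (SE 0.071, adjusted *P* = 3.6e-08, edgeR) and 0.77 in JVM2 (SE 0.14, adjusted *P* = 0.0011, edgeR). *MAP2K6*, a kinase above p38, fell by 0.49 in MEC1 (SE 0.089, adjusted *P* = 2.1e-04, edgeR) and 0.53 in JVM2 (SE 0.089, adjusted *P* = 7.3e-04, edgeR). *NFATC2* fell in MEC1 by 0.24 (adjusted *P* = 8.8e-04, edgeR) and rose in JVM2 by 0.53 (adjusted *P* = 0.021, edgeR). *CABIN1*, an inhibitor of calcineurin and MEF2, fell in JVM2 by 0.29 (adjusted *P* = 0.030, edgeR), and *MAP2K5*, the kinase above ERK5, rose in MEC1 by 0.28 (adjusted *P* = 0.015, edgeR). The JVM2 call of *NFATC2* was lost without JVM2-CTRL replicate 2 or 3 or JVM2-2B17 replicate 1 or 3, at 0.41 to 0.55. That of *CABIN1* was lost without any 1 JVM2-CTRL replicate, and its value was -0.18 without JVM2-2B17 replicate 2, where it passed. Over all pathway lists, 28 of 57 genes tested passed in MEC1 (8 higher, 20 lower; 49.1%) and 23 of 53 in JVM2 (11 higher, 12 lower; 43.4%), against 41.7% and 29.3% of all genes tested. Counts in JVM2 varied with the libraries used, and were 15 without JVM2-CTRL replicate 2 and 14 without JVM2-CTRL replicate 3. Calls over all genes were also fewer in these fits, at 2765 of 13182 and 2687 of 13309.

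**Figure D5:**
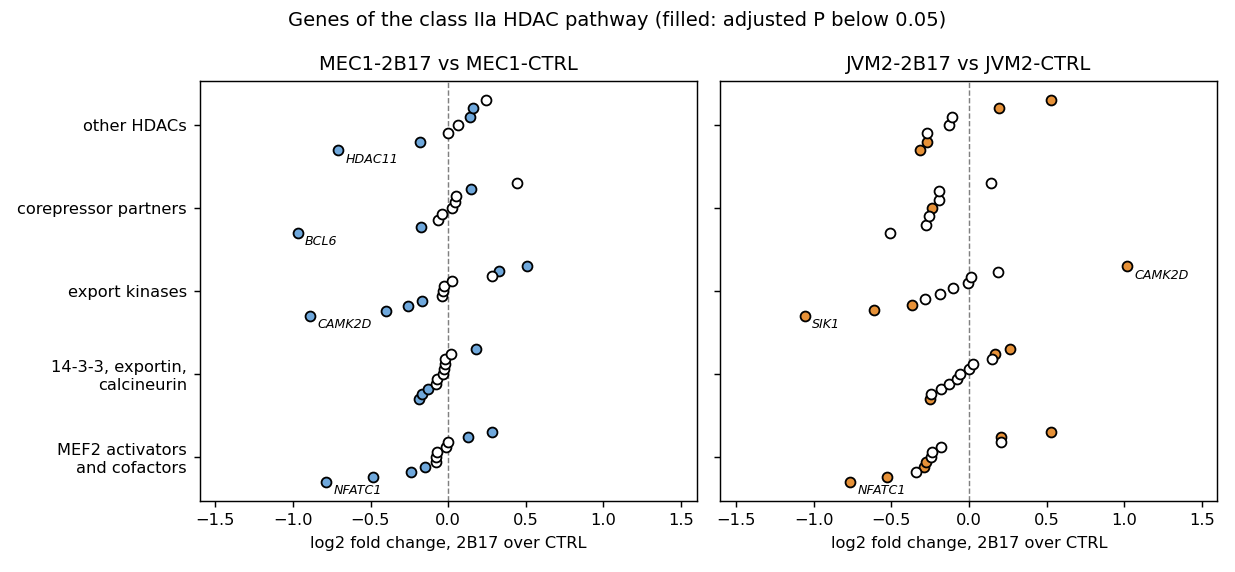
Log2 fold change of 2B17 over CTRL (horizontal axis) for each tested gene of 5 pathway lists (vertical axis) in MEC1 (left) and JVM2 (right), filled where the adjusted *P* is below 0.05, with the largest changes named. *CAMK2D* lies at -0.89 in MEC1 and 1.02 in JVM2, and *NFATC1* at -0.79 and -0.77.

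The genes whose levels were most like those of *HDAC9* over the 12 libraries, by Pearson *r* of log2 CPM among 12116 genes in both tables, were *TMEM38B* (*r* = 0.995), *FANCC* (0.995), *QSOX2* (0.995), *VOPP1* (0.994) and *USP20* (0.993). The 12 points fall into 4 groups of 3 that share a line and an arm, so *r* mostly describes differences between groups. The differences themselves were far smaller than that of *HDAC9*, from -0.47 to -0.20 on the log2 scale in MEC1 and from -0.27 to -0.12 in JVM2. *TMEM38B*, *FANCC*, *QSOX2* and *USP20* lie on chromosome 9, and *VOPP1* on chromosome 7, as *HDAC9* does.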

How the data were processed

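Total RNA of 12 samples was depleted of ribosomal RNA by the authors and read from both ends on a HiSeq2000. Per the labels, the submitters' processing notes name Trimmomatic, TopHat2 2.0.14 and HTSeq, with hg38 as the build. For each line the authors deposited raw read counts of each Ensembl gene in each replicate, which are used here. The deposited tables also hold counts that the authors normalized and rounded (treated as a score), log2 fold changes and p-values of the authors' own tests, and these were not used.

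Each line was fitted with edgeR 4.0.16 in R 4.3.3 (TMM, filterByExpr with a minimum count of 10 and total of 15, quasi-likelihood test), with Benjamini-Hochberg adjustment over all genes tested and a threshold of 0.05. Line comparisons used 1 fit of 12 libraries over genes in both tables. Groups and replicates follow the labels. Intervals are 1.96 SE. Exon lengths came from GENCODE v44 and promoters from RefSeq. Pairs of replicates differed by more than counting error (mean chi-square 2.24 to 8.58 per gene), and the common biological coefficient of variation was 4.22% in MEC1 and 6.92% in JVM2. The fits were tested on simulated data.

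The 8 genes and the pathway lists were chosen with earlier results of these data known. Named were the 8 genes, *UGT2B17*, genes overlapping the 8, the 5 genes most like *HDAC9*, and in each pathway list up to 4 genes per line with the largest change that passed the test and averaged 1 or more in log2 CPM. *JUN*, *KLF6*, *NR4A3* and *SNX13* were named after their values were seen, as were values of a named gene in its other line. Alternatives were DESeq2 1.42.0, edgeR's exact test, both together, RLE scaling, library size only, no filter, at least 10 counts in every library, a replicate block, the 6 control libraries alone for the baseline and each replicate left out. The strand setting of the counting is not given in the sources used here.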

Additional observations from a re-analysis of the deposited data

Results flagged for a closer look

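The effect of the 2B17 arm differed between the lines for the genes below by the interaction test of edgeR on 12 libraries. Of 15130 genes tested, 32.0% differed. The controls of the lines also differed in construct and antibiotic, so line and kind of control cannot be told apart here. Values are the MEC1 effect minus the JVM2 effect on the log2 scale, and the genes were chosen for passing in at least 1 line, so the share among them is no result. The adjusted *P* ranged from 4.1e-14 for *CAMK2D* to 0.046 for *HDAC6*.

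Among MEF2 targets the difference was -3.76 for *EGR1*, -1.50 for *RHOB*, -1.44 for *NR4A2*, -1.35 for *KLF2* and -0.85 for *NR4A1*. Among export kinases it was -1.90 for *CAMK2D*, 1.13 for *CAMK4* and 1.34 for *SIK1*. Among carriers and phosphatases it was -0.45 for *PPP3CC*, -0.19 for *XPO1*, -0.19 for *YWHAQ*, 0.18 for *YWHAG* and 0.26 for *YWHAB*. For the other HDACs it was -1.23 for *HDAC11*, -0.37 for *HDAC3*, 0.38 for *HDAC2*, 0.27 for *HDAC1*, 0.29 for *HDAC8* and 0.26 for *HDAC6*. It was 0.39 for *CBX5*, -0.77 for *NFATC2*, 0.42 for *CABIN1* and 0.47 for *UGT2B17*. The calls of *YWHAG*, *YWHAQ*, *XPO1*, *HDAC6* and *HDAC8* were lost in some fits with 1 library left out, and that of *HDAC6* also with library size only, the stricter filter or the replicate block.

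For *HDAC7* (-1.04) and *MEF2C* (-0.59) every MEC1-2B17 library was below its controls and every JVM2-2B17 library above its own. The difference between the lines was not tested for them. The share of all genes with this pattern was not counted, so the pattern may be common and nothing is read from it.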

How the results depend on the processing

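With replicates left out in turn, 2 to 4 of the 8 genes were past the threshold in JVM2. The 4 included *HDAC9*, which passed the filter through its CTRL counts alone. Pathway genes past the threshold in JVM2 ranged from 14 to 27, and neighboring genes from 19 (without JVM2-CTRL replicate 2) to 44. Over all genes, calls in JVM2 ranged from 2687 of 13309 to 4541 of 13306 in these fits, against 3821 of 13021 with all libraries. Neighbors were 22 without JVM2-CTRL replicate 1 and 21 without replicate 3, against 40. With 1 library fewer, its group is assumed to vary like the others. Other counts stayed within 1.5 times under every alternative run. With the replicate block, 3 of the 8 genes passed in JVM2, *MEF2D* at -0.62 (adjusted *P* = 0.0091, edgeR) being added, and 28 pathway genes. Same-numbered replicates correlated at -0.090, -0.047 and 0.070 in MEC1 and 0.11, 0.14 and -0.013 in JVM2, so the numbers were not taken as pairs. Edge cases were *MEF2D* in edgeR's exact test (adjusted *P* = 0.035), and *HDAC11*, *HDAC3*, *PPP3CC* and *NR4A2* in JVM2 and *HDAC8* and *PPP3CB* in MEC1, which did not pass in DESeq2. *YWHAQ* in JVM2 did not pass with library size only, DESeq2 or the exact test. Scaling by library size only moved the baseline median of all genes from 0.04 to 0.20 on the log2 scale and the share of calls higher in MEC1-CTRL from 50.6% to 59.8%, with the 7 genes still past the threshold. With at least 10 counts in every library, *MEF2B* was not tested at baseline. For single values, 77 of the values with a replicate left out no longer passed and 3 newly passed, and no value past the threshold changed direction. In JVM2, named changes that no longer passed were *HDAC11*, *HDAC3*, *YWHAQ* and *NFATC2* without 2B17 replicate 1, none without 2B17 replicate 2, and *HDAC9*, *HDAC11*, *HDAC3*, *PPP3CC*, *NFATC2* and *NR4A2* without 2B17 replicate 3. They were *HDAC11*, *PRKD2*, *PPP3CC*, *YWHAQ*, *CABIN1* and *NR4A2* without CTRL replicate 1, and *HDAC11*, *HDAC3*, *CBX5*, *PPP3CC*, *YWHAQ*, *NFATC2* and *CABIN1* without CTRL replicate 2 or 3, with *NR4A2* added for replicate 3. In MEC1, *HDAC8* was lost without 2B17 replicate 1, 2B17 replicate 3 or CTRL replicate 2, *HDAC6* without 2B17 replicate 1 or CTRL replicate 1, *PPP3CB* without 2B17 replicate 1, 2B17 replicate 3 or CTRL replicate 3, and *MAP2K5* without 2B17 replicate 3. The line-difference and neighbor alternatives were chosen after seeing the data. At JVM2 depth *HDAC9* and *MEF2B* are limited to 0 to 10 counts per library. The cause of these differences was not tested.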
